A study of Mus musculus with 9 samples.

Results

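Osteocyte dendrite, gap junction and surface genes are described here as a group of 10: Pdpn, Gja1, Cd44, Capg, Dstn, Fbln7, Cd109, Ptprz1, Reln and Irx5. The members were fixed as a list of names and not by a measured threshold. The list was chosen with earlier results of these data known. Each was found through probe sets annotated to exactly 1 gene, of which the one that was brightest on average over the 9 arrays stood for it. All 10 were found, among 18194 genes on the array, and together they had 23 probe sets. RNA came from osteocyte-enriched tibial diaphyses of wild type CD1 mice, from which the marrow was spun out and the surface cells were digested off with collagenase, trypsin and EDTA. The mice were 16 to 18 weeks old. The virgin group was age-matched, the lactation group was killed on day 12 of nursing a litter adjusted to 8 to 13 pups, and the post-lactation group lost its pups on day 12 and was killed 7 days later. Each group had 3 arrays, no group carried a transgene or drug in the labels, and no label says whether an array is a separate mouse, so p-values measure the spread between these arrays. For the post-lactation arrays another label field says virgin, which conflicts with their titles, and the titles were used. One sentence of the protocol speaks of femurs.

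Osteocytes are the cells enclosed in bone, and they reach each other, the blood vessels and the bone surface through long dendrites that run in narrow canals. The dendrites are built on bundled actin filaments, are anchored to the canal wall by surface receptors, and meet at gap junctions, through which the cells exchange small molecules. Podoplanin, also called E11, is an early osteocyte protein known for its part in dendrite growth, and connexin 43 (Gja1) is the main gap junction protein of bone. During lactation osteocytes are known to remove mineral and matrix from the walls of their own spaces and to replace them after weaning.

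The start regions of 3 of the genes are shown because the first pair and the third moved in opposite directions on the one array that stood apart, described below. RefSeq promoter windows (build GRCm38.p6) were matched for 8 of the 10 genes, all but Cd109 and Irx5, and the 250 bases upstream of the annotated start are printed in the direction of the gene. Capitals mark matches, on either strand, to the motifs searched: the GC box GGGCGG, the AP-1 site TGACTCA, the TATA box TATAAA, the RUNX core TGTGGT and the E-box CACGTG.
Pdpn: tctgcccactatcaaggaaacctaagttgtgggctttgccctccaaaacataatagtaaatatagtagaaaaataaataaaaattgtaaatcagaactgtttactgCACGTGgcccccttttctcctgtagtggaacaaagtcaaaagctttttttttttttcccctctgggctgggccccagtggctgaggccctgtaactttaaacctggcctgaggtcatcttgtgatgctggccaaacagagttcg
Gja1: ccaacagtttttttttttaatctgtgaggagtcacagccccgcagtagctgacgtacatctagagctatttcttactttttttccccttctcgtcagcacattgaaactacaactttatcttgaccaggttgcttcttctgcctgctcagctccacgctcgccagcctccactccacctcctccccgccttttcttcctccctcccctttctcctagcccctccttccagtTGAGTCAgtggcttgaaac
Dstn: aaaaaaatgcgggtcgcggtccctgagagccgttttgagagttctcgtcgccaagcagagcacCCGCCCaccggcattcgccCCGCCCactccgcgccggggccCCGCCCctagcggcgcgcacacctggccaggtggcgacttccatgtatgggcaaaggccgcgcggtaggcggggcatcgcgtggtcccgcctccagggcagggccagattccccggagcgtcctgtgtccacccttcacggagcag
The Pdpn window (chr4:143299565-143299814, minus strand) held 1 E-box, at positions -144 to -139 from the start, a motif present in 6.02% of all 32851 windows of this length. The Gja1 window (chr10:56377050-56377299, plus strand) held 1 AP-1 site, on the opposite strand at positions -19 to -13, and 4.46% of all windows hold one. The Dstn window (chr2:143915081-143915330, plus strand) held 3 GC boxes on the opposite strand, and 32.7% of windows hold at least 1. Its GC content was 69.6%, against 43.2% for Pdpn and a median of 52.4% over all windows. None of the 3 windows matched the TATA box (12.4% of all windows) or the RUNX core (4614 of the windows). These matches describe the letters only.

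The osteocyte identity of the tissue was checked first. Sost, Dmp1, Mepe and Phex, which are used as osteocyte markers, were bright on 8 of the 9 arrays. Sost read 11.59 to 13.55, Dmp1 13.16 to 14.08, Mepe 11.67 to 13.25 and Phex 10.71 to 11.94 on the log2 scale. On the array virgin 1 they read 8.14, 11.90, 9.53 and 9.02, each below all other arrays. Fgf23, another osteocyte gene, was under the level of 4.87 (the 40th percentile of gene means) on every array, with 4.46 on virgin 1 and 2.60 to 3.02 on the others, so it did not share the low value of virgin 1. RNA of blood-forming cells was present on all arrays. The 12 measured neutrophil genes averaged 7.07 to 8.15 log2 units above the array median, with the highest value on virgin 1. In bulk RNA, fewer cells of a type and less RNA per cell cannot be told apart. The labels name no batches. Exactly equal values between arrays were used to place the 9 arrays in 3 sets, each with 1 array of every group. That each set was summarised together was inferred from this and was not tested. Array medians differed between the sets (4.32 to 4.34, 4.80 to 4.82 and 4.57). Virgin 1 shared set 1 with lactation 3 and post-lactation 1. Lactation 2 and post-lactation 3 were in set 2 with virgin 2, and the remaining arrays formed set 3. Pairs of arrays within sets 2 and 3 had 36.13% to 44.14% of values exactly equal. Pairs within set 1 had only 2.503% to 2.718%, and pairs from different sets at most 0.00443%. Set 1 was thus a weaker grouping than the other sets. The differences of the 10 genes from the virgin group are also read without virgin 1 and within the sets.

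Across virgin, lactating and post-lactation mice, no group difference of the 10 genes passed the test. By limma with group means, 0 of 10 were called at a Benjamini-Hochberg adjusted p under 0.05 in lactation versus virgin, where 0% of the 18194 genes were called, 0 of 10 in post-lactation versus lactation (0.709% of genes called) and 0 of 10 in post-lactation versus virgin (0.176%). The smallest adjusted p among the 10 genes was 1 in each comparison, and no unadjusted p was under 0.05. Without virgin 1 the same fit called 0 of 10 in each (0%, 0.758% and 0.115% of genes), with an unadjusted p under 0.05 for 1 gene, Cd109 in post-lactation versus lactation. A fit with the array set as a block also called 0 of 10 in each comparison (0.022%, 3.53% and 0.451% of genes), and 1 of the 10 had an unadjusted p under 0.05 in each. These were Cd109 in lactation versus virgin (limma adjusted p = 0.553), Cd44 in post-lactation versus lactation (adjusted p = 0.292) and Gja1 in post-lactation versus virgin (adjusted p = 0.423). The groups of none of the 10 were free of overlap in lactation versus virgin (2.06% of genes did not overlap with lactation higher, 0.698% with lactation lower) or in post-lactation versus virgin (1.17% and 1.49%). In post-lactation versus lactation 1 of the 10 did not overlap, Cd109, lower after weaning (4.38% of genes, and 3.26% higher). The largest group difference, that of Cd109 in lactation, was 0.88 log2 units with a 95% interval of -0.20 to 1.96. The intervals leave room for changes of more than 2-fold in either direction for Irx5 in all 3 comparisons, so a missing call does not show that the groups were alike.

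**Figure D1:**
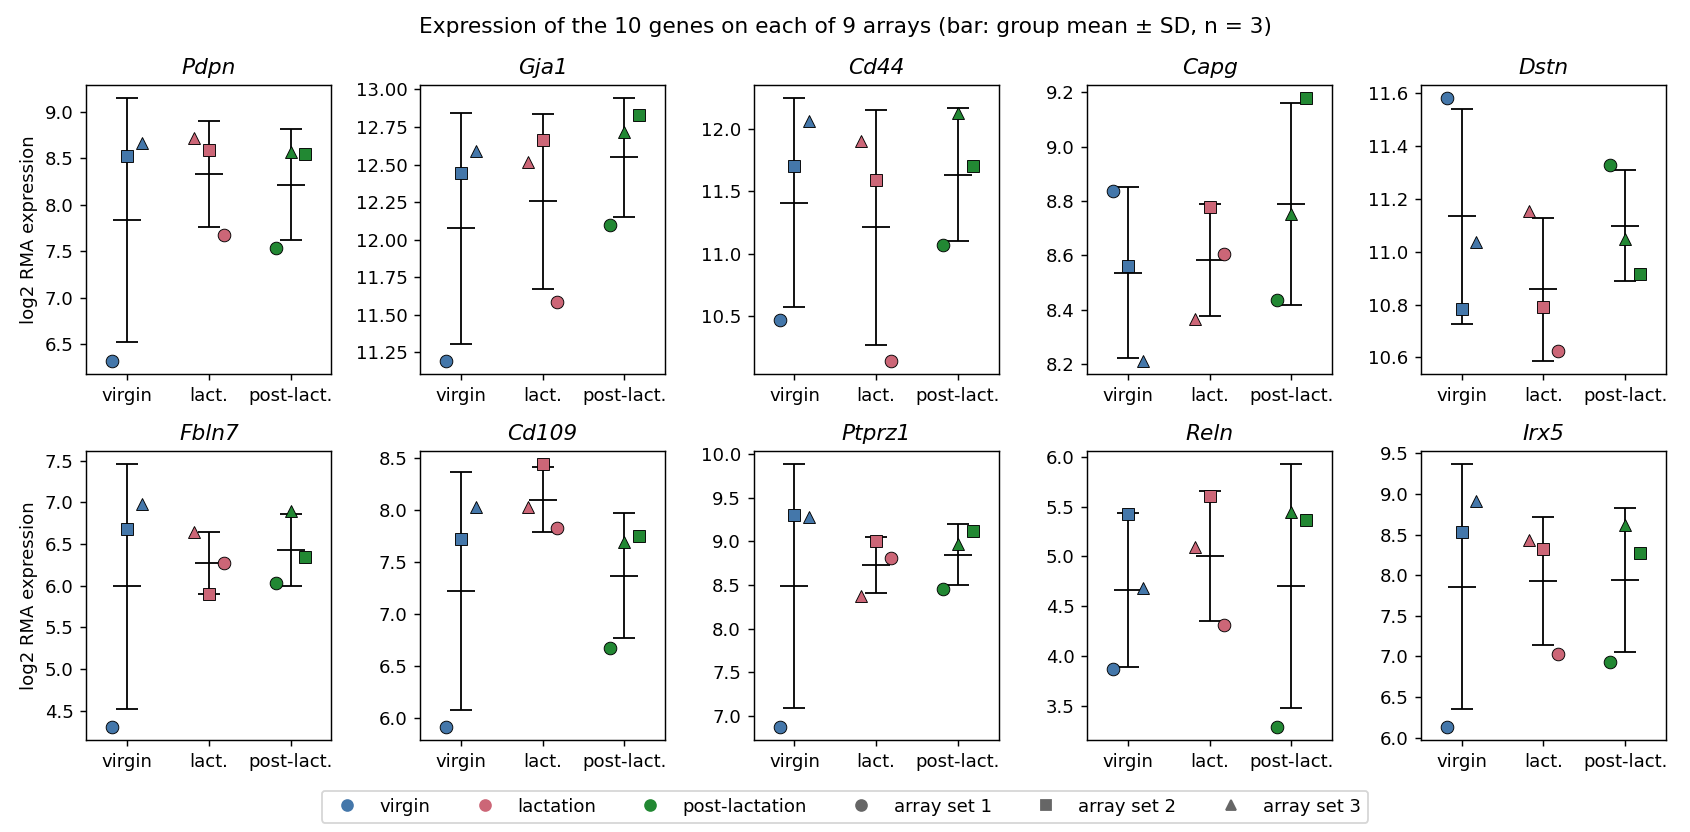
Log2 expression of the 10 genes (vertical axis, a scale of its own in each panel) on each of the 9 arrays, by group, with the array set shown by the marker and the group mean by the bar. Virgin 1, in set 1, is the lowest array for 6 of the 10 genes (26.2% of all genes), and the highest for Dstn.

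The most visible feature of the 10 genes was not a group but the array virgin 1. Against the mean of virgin 2 and virgin 3 it was lower by 1.18 to 2.59 log2 units in 8 genes, which include the dendrite protein Pdpn, the gap junction gene Gja1 and the transcription factor Irx5. Both actin filament regulators were higher there, Capg by 0.45 and Dstn by 0.67. Of all genes 58.8% were below both other virgin arrays on virgin 1, but only 7.54% lay at least 1 log2 unit below their mean, against 8 of the 10 described here. Because the 10 were chosen with earlier results of these data known, these shares are a description and not a test. After each array was centred on its median, 6 of the 10 lay at least 1 unit lower, against 3.14% of genes, and the median gap of the 10 was -1.31 against 0.09 over all genes. On virgin 1, all but Fgf23 of the 14 other osteocyte genes measured were below both other virgin arrays before centring. So were 58.8% of all genes. Hyou1 read 8.24, 8.43 and 8.45 on virgin 1 to 3, and Slc17a2 4.23, 4.27 and 4.43. These gaps were smaller than those between the array medians (4.32, 4.82 and 4.57). The mean of the 14 above the array median was 3.11 on virgin 1, and 4.41 and 4.71 on virgin 2 and 3. On the other arrays it was 4.04 to 4.47. The neutrophil genes read 8.15 on virgin 1 and 7.52 and 7.20 on virgin 2 and 3, and the 11 B lymphocyte genes 1.38, 3.02 and 2.93. The part of other cells in the low values of virgin 1 was not tested. Virgin 1 was not the only low array of its set: in 6 of the 10 genes the set 1 array was the lowest of its group in all 3 groups, as in 37.2% of all genes, and after centring this held for 5 of the 10 and 10.4% of genes.

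Pdpn encodes podoplanin, the membrane glycoprotein that links the surface of growing dendrites to the actin cytoskeleton through ezrin-type proteins. Its probe set, 1419309_at, lies in the gene at chr4:143267409-143299564 (GRCm38.p6), and it was the only one for the gene. Pdpn read 6.32, 8.52 and 8.66 on virgin 1 to 3, 8.72, 8.59 and 7.67 on lactation 1 to 3, and 7.53, 8.57 and 8.55 on post-lactation 1 to 3. The low value in each group was its set 1 array, the other 6 arrays lay within 8.52 to 8.72, and the groups overlapped. The lactation mean exceeded the virgin mean by 0.49 (SE 0.56, 95% interval -0.74 to 1.73), and without virgin 1 the difference was -0.26 (-1.11 to 0.59). Within sets 1, 2 and 3 it was 1.35, 0.07 and 0.06. After weaning Pdpn differed from lactation by -0.11 (-1.35 to 1.12), with -0.14, -0.04 and -0.15 within the sets. Podoplanin also marks lymphatic vessels, so their genes were read beside it. Prox1, which defines lymphatic endothelium, was under 4.87 on every array (2.62 to 3.79), and Lyve1 read 2.75 to 3.95 on 8 arrays and 6.33 on virgin 1, where Pdpn was lowest. Flt4, the receptor for lymphatic growth factors that blood vessels also carry, read 7.21 to 7.50 and Mmrn1, which platelets also hold, 6.12 to 7.19, so both were above 4.87 on every array. The part of lymphatic vessels in the Pdpn values was not tested.

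Cd44 encodes the surface receptor for hyaluronan and osteopontin, which binds podoplanin and, through the same linker proteins, actin. It read 10.47, 11.70 and 12.06 on virgin 1 to 3, 11.90, 11.59 and 10.14 in lactation and 11.07, 12.13 and 11.70 after lactation (1423760_at, gene at chr2:102811141-102901669). Again the set 1 array was lowest in each group, and lactation 3 lay below virgin 1. The group means were 11.41 ± 0.84, 11.21 ± 0.94 and 11.63 ± 0.53 (SD, n = 3), an order of lactation, virgin and post-lactation in which no neighbours differed beyond their spread. Within the sets lactation was lower than virgin by small amounts, -0.33, -0.11 and -0.16, and post-lactation was higher than lactation by 0.93, 0.11 and 0.22. Of all genes 6.11% were lower in lactation in 3 of 3 sets and 12.8% were higher after weaning in 3 of 3. The fitted difference after weaning, 0.42 (SE 0.50 by group means), had an interval of -0.69 to 1.53. The other probe sets of Cd44 did not share it: the differences after weaning were -0.05 at 1434376_at and 0.06 at 1452483_a_at, where virgin 1 read 8.01 against a mean of 7.99 over the 9 arrays. The array's probe sets can read different transcript ends or splice forms, of which Cd44 has many.

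The partners of podoplanin and CD44 were read as a list of 15 measured genes, from ezrin, radixin and moesin to the hyaluronan synthases. None was called in any comparison by limma with group means. In lactation 7 were higher and 8 lower than in virgins, with a median of -0.03 against 0.01 over all genes, without virgin 1 the counts were 4 and 11 (median -0.13), and after weaning 8 were higher than in lactation and 7 lower (median 0.07 against 0). Cemip, which encodes a hyaluronan-degrading protein, had the largest lactation difference in the list, 0.99 (SE 0.29, limma adjusted p = 1), from a virgin mean of 5.24 to 6.24. Its values on all 3 lactation arrays, up to 6.38, lay above the virgin values (4.84, 5.15 and 5.75), as for 2.06% of genes. The difference without virgin 1 was 0.79, and Cemip was not called. Cemip then read 5.22, 5.31 and 6.07 after lactation. Vcan, the hyaluronan-binding proteoglycan versican, was 0.54 lower in lactation than in virgins (8.14 and 7.60, limma adjusted p = 1), and 0.75 lower without virgin 1.

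Gja1 encodes connexin 43, copies of which join to form the half-channel that pairs with one from the next cell. Its brightest probe set, 1437992_x_at, lies in the gene at chr10:56377300-56390419. Gja1 read 11.19, 12.45 and 12.59 on virgin 1 to 3, 12.51, 12.66 and 11.59 in lactation and 12.10, 12.72 and 12.83 after lactation. The post-lactation group mean was highest, 12.55 ± 0.39 (SD, n = 3), followed by lactation with 12.25 ± 0.58 and virgin with 12.08 ± 0.77, and the groups overlapped. At this probe set post-lactation was the highest of the 3 groups within every set: it exceeded virgin by 0.90, 0.38 and 0.13 and lactation by 0.51, 0.16 and 0.20. Of all genes 5.91% exceeded virgin in 3 of 3 sets, and 12.8% exceeded lactation in 3 of 3. By group means the post-lactation difference from virgin was 0.47 (SE 0.40, interval -0.41 to 1.35, 1.39-fold), and without virgin 1 it was 0.03 (-0.73 to 0.79). With the set as a block and without virgin 1 it was 0.31 (SE 0.12, limma adjusted p = 0.546). Another 3 bright probe sets of the gene gave 0.46, 0.49 and 0.22 with all arrays and 0.21, 0.13 and -0.025 without virgin 1, while 2 dim ones averaged 5.31 and 4.56. In set 3 the bright 1415800_at read 11.57 on both virgin 3 and post-lactation 2.

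Most other connexin and pannexin genes were dim in this tissue. Of 17 measured, 4 had a group mean above 4.87, namely Gja1, Gja4 (connexin 37), Gjc1 (connexin 45) and Panx1 (pannexin 1). None of the 17 was called in any comparison, and the median differences were 0.01 in lactation versus virgin, 0.06 in post-lactation versus lactation and 0.01 in post-lactation versus virgin. Without virgin 1 the medians against virgin were both -0.06. Gjc1 ran from 5.91 in virgins through 6.28 in lactation to 6.59 after it, a difference of 0.68 (SE 0.30, limma adjusted p = 1) that was 0.46 without virgin 1. Gja4 was 0.69 higher in lactation than in virgins (SE 0.49), and -0.03 without virgin 1. The 14 measured junction partners and cadherins, which hold neighbouring membranes together and attach the junctions inside the cell, also gave no call. In lactation 12 of the 14 were higher than in virgins, with a median of 0.25, but without virgin 1 the count was 6 and the median -0.08. The members with the largest lactation difference were Ccn3, a matricellular protein that binds connexin 43 (0.82, and 0.17 without virgin 1), and Itgb3, an integrin subunit that osteoclasts also make (0.59, and 0.46 without virgin 1).

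**Figure D2:**
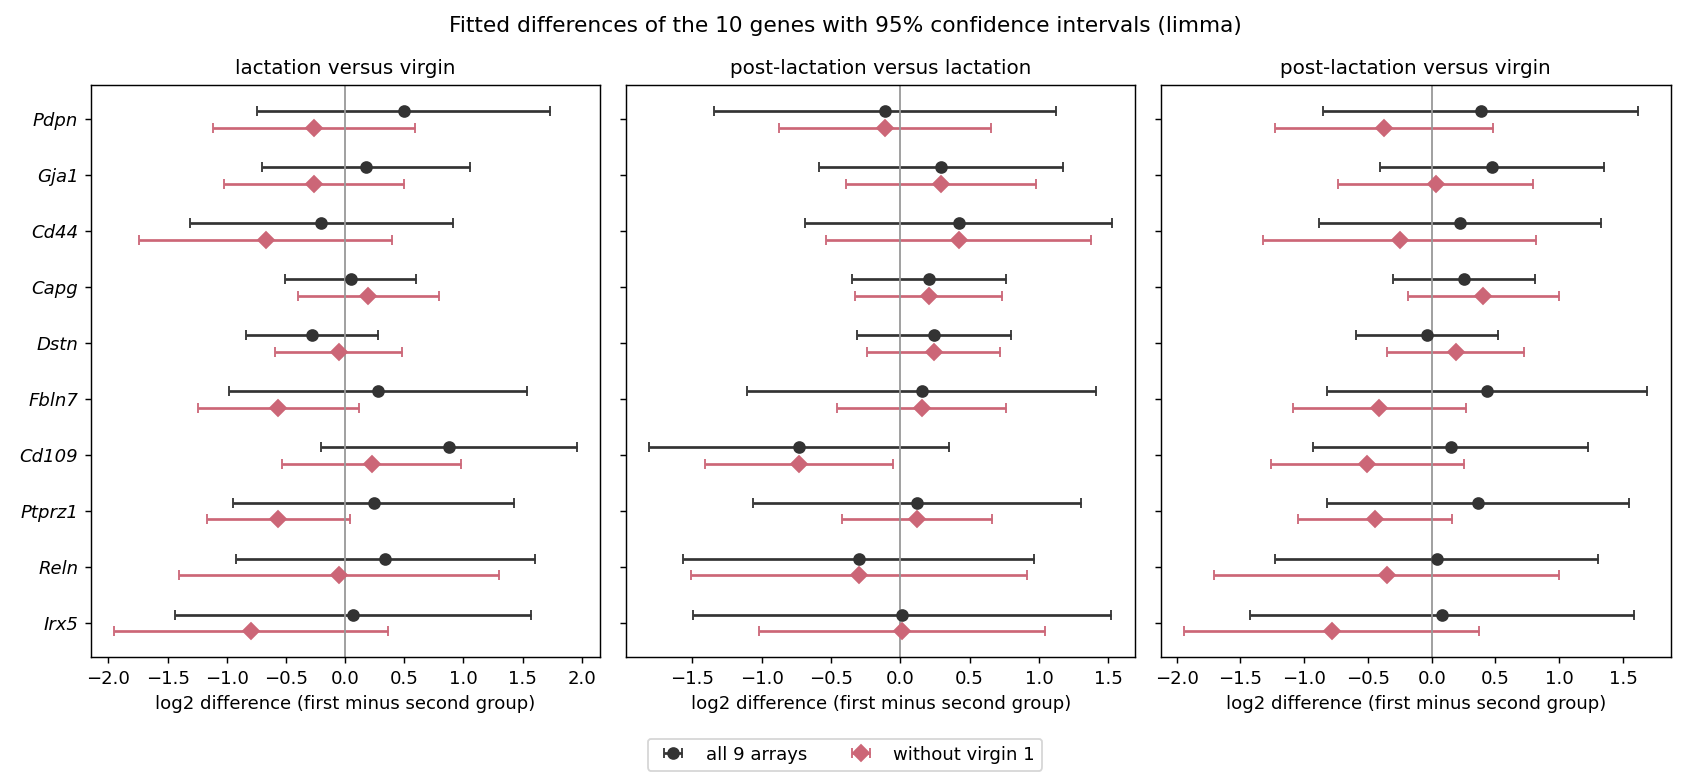
Fitted log2 differences of the 10 genes in the 3 comparisons (horizontal axis, first group minus second) with 95% intervals, from all arrays and without virgin 1. No gene is called in any panel, and leaving out virgin 1 turns the sign of 6 genes in lactation versus virgin and 8 in post-lactation versus virgin.

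Capg and Dstn act on actin filaments, the core of the dendrite: the product of Capg caps the growing end of a filament, and destrin cuts and shortens filaments. Capg read 8.84, 8.56 and 8.21 on virgin 1 to 3, 8.37, 8.78 and 8.61 in lactation and 8.43, 8.75 and 9.18 after lactation (1450355_a_at, chr6:72538282-72562983). The spread was narrow, and virgin 1 was the highest of its group rather than the lowest. Capg after lactation differed from virgin by 0.25, and by 0.40 (-0.19 to 1.00) without virgin 1, with -0.40, 0.62 and 0.54 within the sets. Dstn read 11.58, 10.78 and 11.04 in virgins, 11.16, 10.79 and 10.63 in lactation and 11.33, 11.05 and 10.92 after lactation (1417124_at, chr2:143915331-143943324). Virgin 1 was the highest of all 9 arrays, as for 8.88% of genes (22.1% after centring). The lactation difference of Dstn was -0.28 (SE 0.25, interval -0.83 to 0.28) with all arrays and -0.05 without virgin 1, and sets 1, 2 and 3 gave -0.96, 0.01 and 0.12. Macrophages also make much Capg, and their 12 genes averaged 2.62 to 2.78 above the array median in virgins, 2.65 to 3.02 in lactation and 2.62 to 3.01 after it. Their part in the Capg values was not tested.

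Other actin genes gave 1 call over all genes. Of 29 measured genes of filament turnover, 24 were higher after weaning than in lactation, with a median of 0.17 against 0 over all genes, and 1 fell past the threshold. This was Tmod1, tropomodulin, which caps the slow end of actin filaments and is abundant in the red cell membrane. Its mean was 7.06 in virgins, 8.19 in lactation and 5.33 after weaning, a drop by 2.86 log2 units (SE 0.39, limma adjusted p = 0.004). Without set 1, which leaves 6 arrays, limma called no gene in this comparison. The 12 erythroid genes moved with it: all 12 fell after weaning, and their mean above the array median was 3.22 to 4.22 in virgins, 4.70 to 5.13 in lactation and 0.36 to 1.10 after weaning, with none of them under 4.87 in every group. The part of red cell precursors in the Tmod1 result was not tested. With the set as a block, Cap1, a protein that recycles actin subunits (0.43, limma adjusted p = 0.031), and Ssh2, a phosphatase that activates cofilin and destrin (0.51, adjusted p = 0.025), also rose after weaning, whereas by group means their adjusted p was 1 and 0.844. Scinderin (Scin), a filament-severing protein, was 0.87 higher in lactation than in virgins, 0.55 without virgin 1, and 0.99 lower after it, with no call.

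The 20 measured genes of actin bundling and protrusion, which hold filaments together in thin processes, gave 0 calls. After weaning 14 of the 20 were higher than in lactation, with a median of 0.17 against 0 over all genes. Fscn1, fascin, the bundling protein of thin cell processes, had the largest of these differences: its means were 9.06, 8.89 and 9.68 in virgin, lactation and post-lactation, a difference of 0.79 after weaning (SE 0.28, limma adjusted p = 0.596). Vasp, which speeds filament growth at protruding edges, differed by 0.55 (SE 0.25, limma adjusted p = 0.980).

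Cd109 encodes a surface protein held by a lipid anchor that binds TGF-beta and its receptors. It was the gene of the 10 with the largest differences in lactation. Cd109 read 5.91, 7.72 and 8.03 on virgin 1 to 3, 8.03, 8.44 and 7.83 in lactation, and 6.67, 7.69 and 7.75 after lactation (1436346_at, chr9:78615546-78716260). Every lactation array lay above every post-lactation array, as for 4.38% of genes, while the virgin and lactation groups overlapped at virgin 3. Lactation exceeded virgin by 0.88 (SE 0.49, 1.84-fold), the 99.3rd percentile of all gene differences, and without virgin 1 by 0.22 (SE 0.34, interval -0.53 to 0.98). The set differences were 1.92, 0.72 and 0.00. After weaning it was lower than in lactation by 1.66-fold, a log2 difference of -0.73 (SE 0.49, interval -1.81 to 0.35), with -1.16, -0.70 and -0.34 within the sets. The limma adjusted p was 1 by group means, 0.365 with the set as a block and 0.717 without virgin 1, so the difference after weaning was not called. The second probe set of Cd109 gave 0.89 and -0.68 for the same comparisons, and 0.42 for lactation without virgin 1. Without virgin 1 Cd109 after lactation differed from virgins by -0.51, with no call. Genes of osteoclasts, of which 11 were measured, were highest in lactation as well: their mean above the array median was 2.64 to 2.71 in virgins, 3.47 to 3.85 in lactation and 2.68 to 3.18 after weaning, with a median difference of 1.05 in lactation and -0.73 after it. In post-lactation versus virgin their median was 0.24 with all arrays and 0.06 without virgin 1. Cd109 differed there by 0.15 and -0.51. The list includes Acp5 and Ctsk, and which cells made the RNA of the listed genes was not tested. The part of osteoclasts in the Cd109 values was not tested either.

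**Figure D3:**
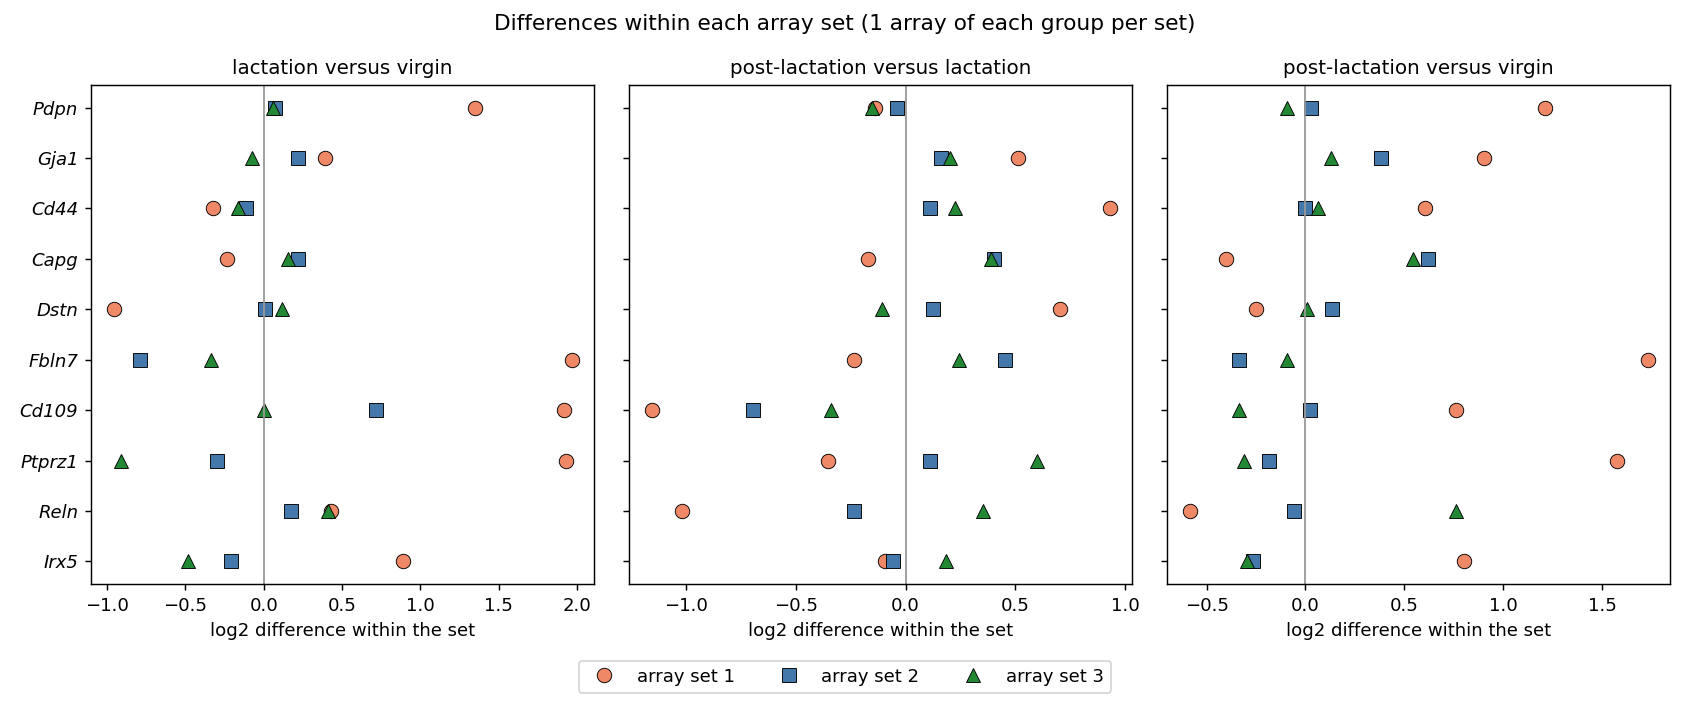
Log2 difference of each of the 10 genes (horizontal axis, first group minus second) within array sets 1, 2 and 3, with 1 array of each group per set. After weaning Cd109 is below lactation in all 3 sets and Gja1 is above virgin in all 3. The lactation differences of Fbln7, Cd109 and Ptprz1 are largest, at 1.92 to 1.97, in set 1, which holds virgin 1.

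Fbln7 encodes fibulin-7, a secreted matrix glycoprotein to which cells attach. Fbln7 read 4.30, 6.68 and 6.99 on virgin 1 to 3, 6.65, 5.90 and 6.27 in lactation and 6.03, 6.89 and 6.35 after lactation (1460412_at, chr2:128863865-128897034). On virgin 1 it was below 4.87. With all arrays lactation exceeded virgin by 0.28 (SE 0.57, interval -0.98 to 1.54), and without virgin 1 the difference was -0.56 (SE 0.31, interval -1.24 to 0.12). The lactation arrays then lay below both remaining virgin arrays, as for 5.66% of genes. Set 1 gave 1.97, and sets 2 and 3 gave -0.79 and -0.34. Among the 6 fibulin genes measured none was called. Fbln5, which helps to assemble elastic fibres, was 0.89 higher after lactation than in virgins (SE 0.32, limma adjusted p = 1) and 0.51 higher without virgin 1, from means of 8.88 and 9.77. All 6 were higher after lactation than in virgins with all arrays (median 0.48) and 3 of 6 without virgin 1 (median -0.0033).

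Ptprz1 encodes a receptor tyrosine phosphatase whose outer part is also released as the proteoglycan phosphacan, and which is switched off by pleiotrophin (Ptn) and midkine (Mdk). Its values were 6.87, 9.31 and 9.29 on virgin 1 to 3, 8.38, 9.01 and 8.81 in lactation and 8.45, 8.97 and 9.12 after lactation (1452284_at, chr6:22875315-23052916). Virgin 1 was the lowest array and virgin 2 and 3 the highest. Lactation therefore differed from virgin by 0.24 (SE 0.54, interval -0.94 to 1.43) with all arrays and by -0.57 (SE 0.27, interval -1.17 to 0.04) without virgin 1, where neither lactation nor post-lactation arrays overlapped the virgin ones. Of all genes 5.66% did not overlap with lactation lower and 5.01% with post-lactation lower when virgin 1 was left out. The post-lactation difference from virgin was then -0.45 (-1.05 to 0.16). No call was made with or without virgin 1. Midkine ran from 6.46 in virgins and 6.53 in lactation to 7.14 after it, and its rise after weaning, 0.61, was called with the set as a block (limma adjusted p = 0.036) but not by group means (adjusted p = 1). Pleiotrophin was 0.65 higher in lactation than in virgins, and -0.29 without virgin 1.

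Reln encodes reelin, a large secreted glycoprotein known from brain development that signals through the receptors Vldlr and Lrp8. It was near the low level: Reln read 3.87, 5.42 and 4.69 on virgin 1 to 3, 5.10, 5.60 and 4.31 in lactation and 3.29, 5.45 and 5.37 after lactation (1449465_at, chr5:21884454-22344705). Among its group means only that of lactation exceeded 4.87, and the virgin and post-lactation means were 4.66 ± 0.78 and 4.70 ± 1.22. The groups overlapped widely. Lactation exceeded virgin by 0.43, 0.18 and 0.41 in the 3 sets, and by 0.34 in the fit (SE 0.58). Without virgin 1 the difference was -0.054, and with the virgin mean raised to 4.87 it was 0.14. Among the 11 measured genes of the reelin and Ptprz1 pathways none was called by group means, and 10 were higher after weaning than in lactation (median 0.19 against 0 over all genes). The receptor gene Vldlr differed by 0.52 (SE 0.49, limma adjusted p = 1), with means of 9.15 in lactation and 9.68 after it.

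Irx5 encodes a homeodomain transcription factor of the Iroquois family. It read 6.13, 8.53 and 8.91 on virgin 1 to 3, 8.43, 8.33 and 7.03 in lactation and 6.93, 8.62 and 8.27 after lactation (1421072_at, chr8:92357796-92361456). The low array of every group was that of set 1, and virgin 1 was 2.59 log2 units, or 6.02-fold, under the mean of the other virgin arrays, the widest gap of the 10 genes. The group means were 7.86 ± 1.51, 7.93 ± 0.78 and 7.94 ± 0.89 (SD, n = 3), a difference of 0.07 in lactation (SE 0.69, interval -1.44 to 1.57) and 0.01 after weaning (-1.49 to 1.52). Without virgin 1 the lactation difference was -0.80 (SE 0.52, interval -1.95 to 0.36). All lactation arrays were then below both remaining virgin arrays, as for 5.66% of genes. Of the 6 Iroquois genes, Irx3 and Irx5 had a group mean above 4.87. Irx3 read 8.71 on virgin 1, 9.78 and 10.13 on virgin 2 and 3, 9.19 to 9.72 in lactation and 9.35 to 10.14 after it, and it was 0.33 higher after weaning than in lactation (SE 0.36, limma adjusted p = 1).

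**Figure D4:**
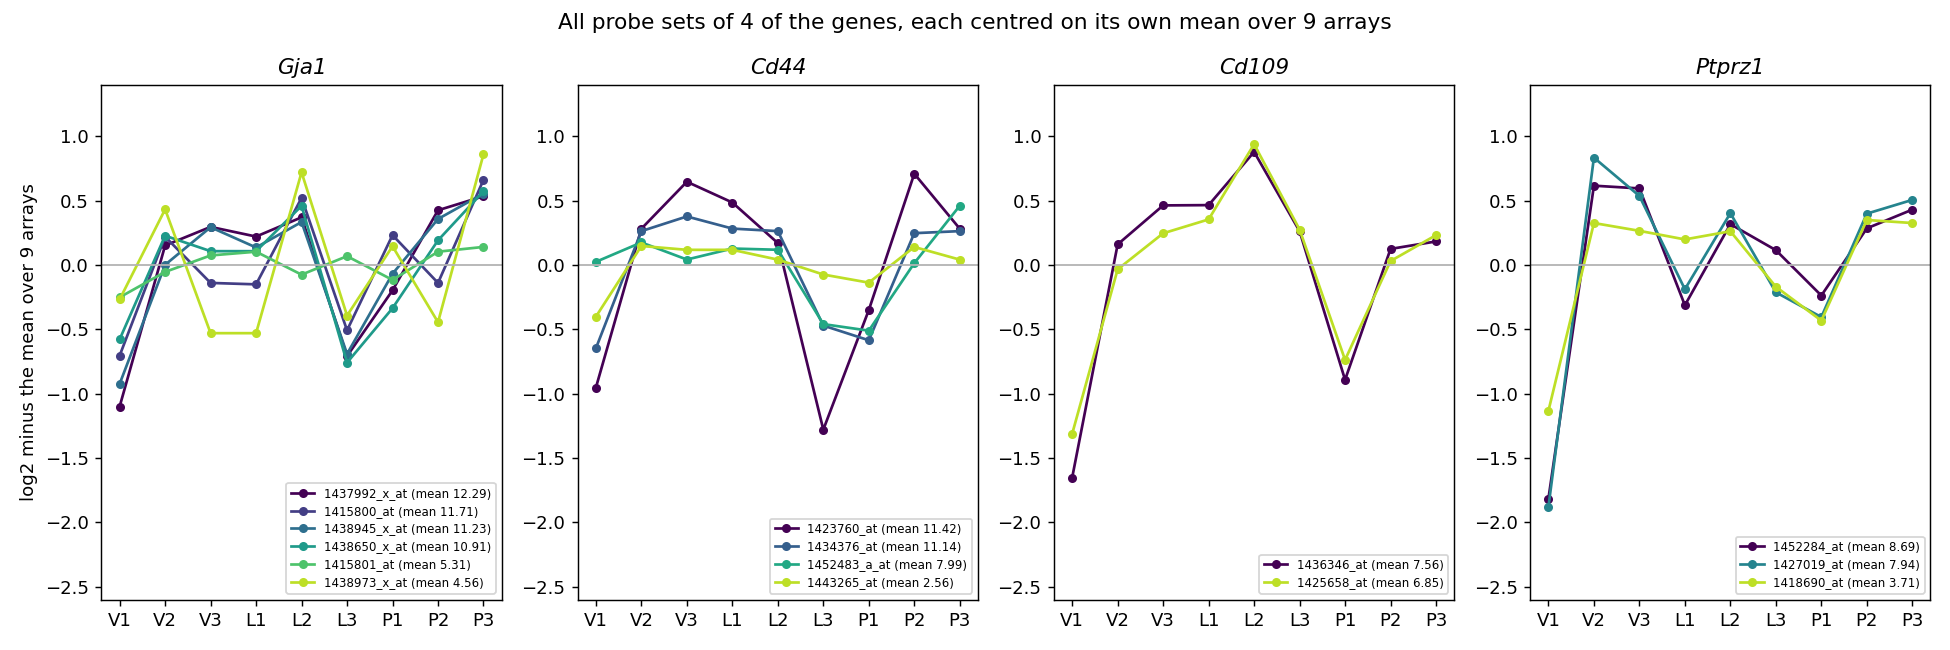
Log2 value minus the probe set's own mean (vertical axis) on the 9 arrays (V virgin, L lactation, P post-lactation) for every probe set of Gja1, Cd44, Cd109 and Ptprz1, with the mean in the key. Both Cd109 probe sets follow each other from array to array, whereas those of Cd44 differ in how low virgin 1 reads.

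Read as a group, the 10 genes had a median difference of 0.21 in lactation versus virgin, with 8 higher and 2 lower, where 52.1% of all genes were higher (median 0.01). Without virgin 1 the same comparison had 2 higher and 8 lower, a median of -0.26, where 32.4% of all genes were higher (median -0.08). Post-lactation versus lactation had 7 higher and 3 lower (median 0.14, 49.9% of genes higher). Post-lactation versus virgin had 9 higher and 1 lower (median 0.24, 50.5% of genes higher), and 3 higher and 7 lower without virgin 1 (median -0.36), where 28.6% of all genes were higher (median -0.09). The comparisons share their virgin or lactation arrays. Within sets 1, 2 and 3 the medians were 0.66, 0.04 and -0.04 for lactation versus virgin and 0.78, 0.01 and -0.04 for post-lactation versus virgin. The higher medians over virgin were found in set 1, the set of virgin 1. In lactation versus virgin 3 of the 10 were higher in all 3 sets, Pdpn, Cd109 and Reln (10.4% of genes), and Cd44 was lower in all 3 (6.11%). In post-lactation versus lactation Gja1 and Cd44 were higher in all 3 sets (12.8% of genes), and Pdpn and Cd109 were lower in all 3 (16.1%). In post-lactation versus virgin Gja1 was higher in all 3 (5.91% of genes) and 0 of the 10 were lower in all 3 (8.15%).

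**Figure D5:**
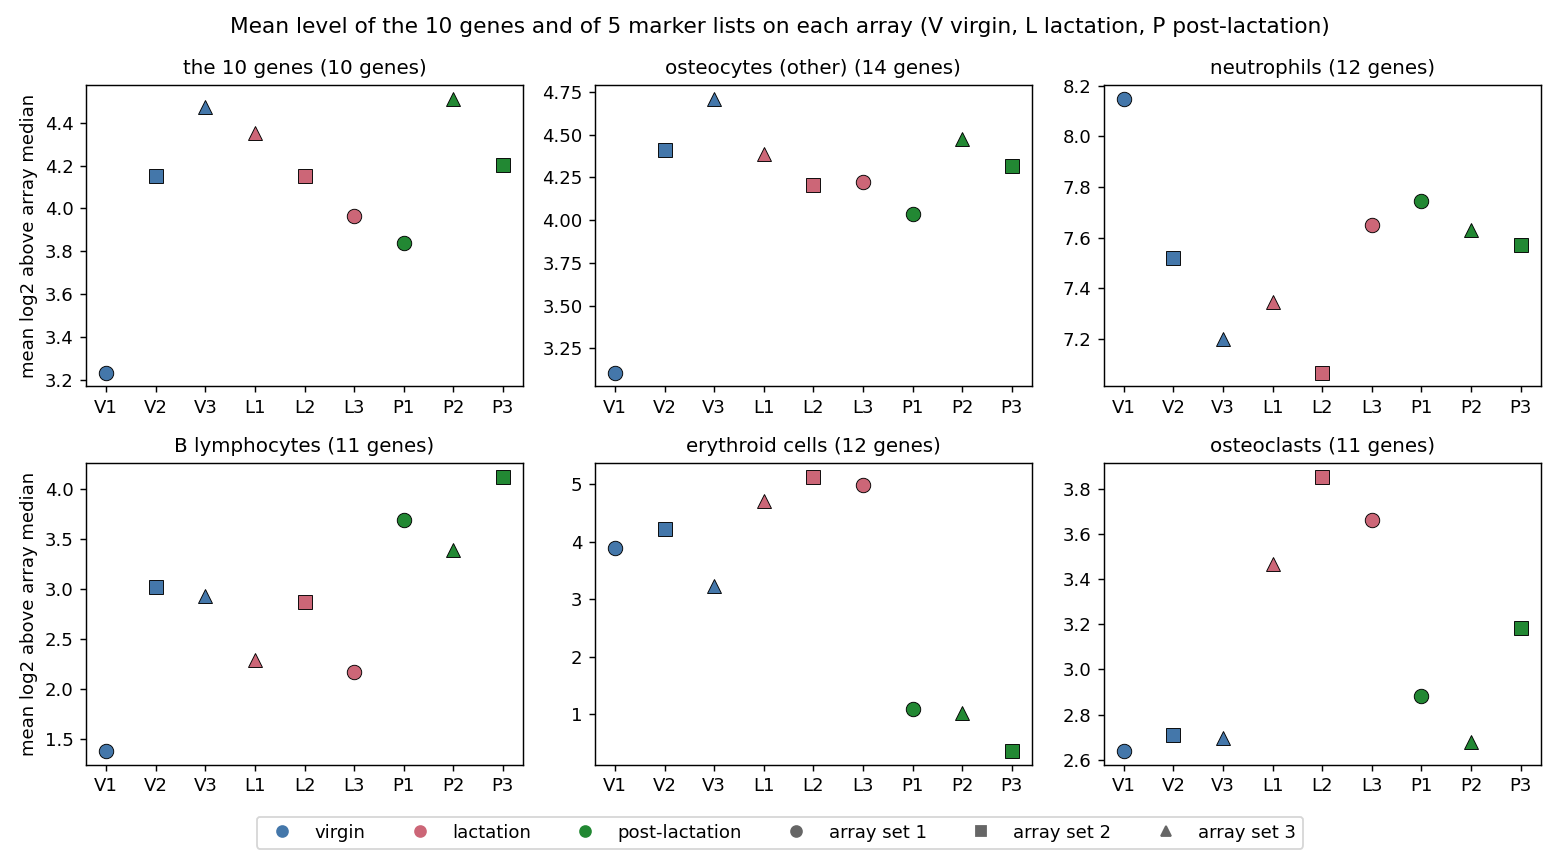
Mean log2 level above the array median (vertical axis) of the 10 genes and of cell type lists on the 9 arrays, by group. The 10 genes and the other osteocyte genes are lowest on virgin 1, as are the B lymphocyte genes (1.38) and, narrowly, the osteoclast genes (2.64). The neutrophil genes are highest there (8.15). The erythroid genes are at 0.36 to 1.10 after lactation against 3.22 to 5.13 on the other arrays.

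The genes with the most similar profile to each of the 10 were sought among 10915 genes with a mean above the low level, by Pearson correlation over the 9 array-centred values. These correlations share the low virgin 1 and the array sets, and are given as a description. Nearest to Pdpn was Arhgef17 (r = 0.994, 0.976 without virgin 1), then Sowahb and Mustn1. Nearest to Irx5 were Tnfrsf12a, the TWEAK receptor (r = 0.989), Tpbg and Dusp7, and nearest to Fbln7 were Epcam, Bmp7 and Ahnak (r = 0.984 to 0.976). The neighbours of Cd109 were Myo1d, Ptgs2 and Spns2 (r = 0.973 to 0.960). For Ptprz1 the nearest gene, Tuba1a, fell from r = 0.960 to 0.757 when virgin 1 was left out. Gja1 was followed by Norad, AY036118 and Pcsk5, Cd44 by Ccser2, 1700128F08Rik and Pcdhb16, Reln by Togaram2, Zfp169 and Ackr4. The actin genes had other neighbours: Capg had Slc7a7, Hpcal1 and Ctsh (r = 0.959 to 0.927), and Dstn had Lnpk, Syne2 and P2rx4 (r = 0.964 for each). Among the 10 themselves, Pdpn and Irx5 had r = 0.94 with and without virgin 1.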

How the data were processed

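RNA from 9 samples, 3 in each of the groups virgin, lactation and post-lactation, was measured on Affymetrix mouse expression arrays. The authors deposited log2 values for 45101 probe sets, and the submitters' processing notes name RMA. Software versions, annotation and any filter: not given in the sources used here. Values ran from 1.55 to 14.9, with none missing.

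Of the probe sets, 34958 named 1 gene, 932 several and 9211 none in the supplied array annotation. The brightest probe set of each of 18194 genes was fitted with limma 3.58.1 in R 4.3.3 (lmFit and eBayes, group means, 6 residual degrees of freedom, Benjamini-Hochberg adjustment over all genes, threshold 0.05). Errors of means are SDs and errors of differences SEs of the fit. The fit was tested on simulated data. The genes and lists were chosen with earlier results of these data known. Named from the lists are genes called over all genes and, per pathway list, genes among the 3 largest differences with a group mean above 4.87, the 40th percentile of gene means, and for each of the 10 genes its 3 nearest profiles. Fgf23, Lyve1, Prox1, Flt4 and Mmrn1 were singled out after values were seen. Other cell types covered by lists were osteoblasts, T and NK lymphocytes, megakaryocytes, endothelium, skeletal muscle, periosteum, chondrocytes, marrow stroma and glia. No cell type list but the erythroid one had a call by group means with all arrays. Array sets were joined where over 1% of values were exactly equal. Alternatives left out arrays, added a block, changed scaling, filter, probe set rule or variance model. Precision is limited by having 3 arrays per group.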

Additional observations from a re-analysis of the deposited data

How the results depend on the processing

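In all 57 alternative fits of the 3 comparisons, limma called 0 of the 10 genes. Replicate numbers in the titles do not pair the arrays: deviations of same-numbered arrays correlated from -0.41 to 0.67 over 9 pairs. Those of different-numbered arrays correlated from -0.47 to 0.73 over 18 pairs. By array set, pairs within a set correlated from 0.47 to 0.73 and pairs from different sets from -0.47 to -0.13. The fit with the replicate number as a block called 0 of the 10 in each comparison, where 0, 118 and 33 genes were called over all, against 0, 129 and 32 without it.

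Directions depended on virgin 1 and its set, and the alternatives that removed them together with the block, or removed set 1, were chosen after seeing the data. With the set as a block and without virgin 1, post-lactation versus virgin was -0.26 for Cd109, 0.19 for Dstn, -0.31 for Fbln7, -0.31 for Irx5, -0.038 for Pdpn and -0.37 for Ptprz1, and lactation versus virgin was -0.47 for Fbln7, -0.32 for Irx5 and -0.49 for Ptprz1. Without set 1, post-lactation versus virgin was -0.16 for Cd109, 0.071 for Dstn, -0.21 for Fbln7, -0.28 for Irx5, -0.031 for Pdpn and -0.25 for Ptprz1, lactation versus virgin was 0.062 for Dstn, -0.56 for Fbln7, -0.34 for Irx5 and -0.60 for Ptprz1, and post-lactation versus lactation was 0.059 for Reln. The mean over all probe sets gave -0.025 for Reln in post-lactation versus virgin. Without set 1 the count of genes called after weaning over all genes was 0, with 6 arrays left.

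Leaving out 1 array at a time, lactation versus virgin ranged from -0.12 to 0.20 for Capg, -0.67 to 0.34 for Cd44, -0.56 to 0.78 for Fbln7, -0.26 to 0.51 for Gja1, -0.80 to 0.59 for Irx5, -0.26 to 0.91 for Pdpn, -0.57 to 0.65 for Ptprz1 and -0.054 to 0.72 for Reln. Cd109 (0.22 to 1.28) and Dstn (-0.45 to -0.05) kept their sign. Post-lactation versus lactation ranged from -0.11 to 0.77 for Cd44, -0.079 to 0.35 for Fbln7, -0.042 to 0.52 for Gja1, -0.44 to 0.52 for Irx5, -0.44 to 0.23 for Pdpn, -0.057 to 0.32 for Ptprz1 and -0.67 to 0.41 for Reln. Cd109 (-0.92 to -0.38), Capg (0.01 to 0.38) and Dstn (0.13 to 0.39) kept theirs. Post-lactation versus virgin ranged from -0.51 to 0.55 for Cd109, -0.25 to 0.55 for Cd44, -0.21 to 0.19 for Dstn, -0.41 to 0.93 for Fbln7, -0.78 to 0.61 for Irx5, -0.37 to 0.80 for Pdpn, -0.45 to 0.77 for Ptprz1 and -0.35 to 0.75 for Reln, while Capg (0.06 to 0.43) and Gja1 (0.03 to 0.73) stayed above 0. The cause of these changes was not tested.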
